A study of Mus musculus with 2 samples.

Results

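The transcripts described here are those of 8 genes of the oligodendrocyte precursor, the cell from which the myelin-forming oligodendrocytes of the brain arise: the transcription factor genes Olig1, Olig2, Sox10, Sox8, Nkx2-2 and Myrf, and the cell surface genes Pdgfra and Cspg4. They were chosen by name, with earlier results of these data known, and all 8 were found among the 17359 genes of the deposited table. The samples were mouse neural stem cells, labelled control and transfected with a scrambled small interfering RNA (siSCR, 1 library), or labelled Chd4 knockdown and transfected with an siRNA against Chd4 (siChd4, 1 library). Chd4 encodes an ATPase of NuRD, a complex that moves nucleosomes and removes acetyl groups from histones. The sources used here give neither the origin and age of the cells nor the dose of siRNA or how long after it the RNA was taken. With 1 library per group there is no measure of the spread between cultures, so no difference below was tested between conditions.

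Olig1 and Olig2 encode related basic helix-loop-helix factors, and Olig2 is needed for the lineage to be specified. Sox8 and Sox10 belong, with Sox9, to the SoxE factors. Sox10 acts in precursors and in maturing oligodendrocytes, where it activates Myrf, which encodes a membrane-anchored factor that drives myelin genes. Nkx2-2 is a homeodomain factor of ventral progenitors and of precursors that begin to differentiate. Pdgfra is the receptor for the mitogen PDGF-A and Cspg4 encodes the proteoglycan NG2, and antibodies to either protein are used to isolate precursors. Olig2, the SoxE factors and PDGF receptor alpha can also be present in neural stem cells and other progenitors, so no single member marks the precursor alone.

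Depth was similar, with 19816811 estimated counts in siSCR and 20072009 in siChd4. Levels are in TPM, a measure of transcript abundance scaled to the same total in each library, which accounts for transcript length and allows comparison between genes. Each level and each fold has a 95% interval from its counts that covers only the error of counting. Since PCR copies were not marked by molecular identifiers, reads may not be independent molecules. Ratios are log2 values of TPM plus 1, siChd4 over siSCR, which understate the difference of low genes. They were set beside the 12882 genes whose TPM averaged 1 or more over both libraries, called the expressed genes. All 8 genes were above 1 TPM in each library. Chd4 itself was at 250 TPM in siSCR and 203 TPM in siChd4, a fold of 0.815 (0.795 to 0.836). The target was thus lower by a small amount in the library labelled as its knockdown. A log2 ratio at least as low as its -0.29 was found in 19.4% of expressed genes, so a difference of this size was common. The 10 neural stem cell markers examined, among them Sox2 (314 and 336 TPM) and Nes (328 and 396 TPM), were all expressed in both libraries. Of these markers 0 differed by 1.5-fold, but 6 had a log2 ratio above 0 and 4 below. The ratios ran from -0.57 for Notch1 (90.8 and 60.8 TPM) to 0.53 for Vim (3340 and 4835 TPM).

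Promoters were available from RefSeq (GRCm38.p6) for 5 of the 8 genes, namely Olig2, Sox8, Nkx2-2, Pdgfra and Cspg4. Those of the receptor pair are shown because Pdgfra differed between the libraries and Cspg4 hardly did. Each sequence is the 250 bases before the listed start site on the strand of the gene. Pdgfra is at chr5:75152001-75152250 (plus strand) and Cspg4 at chr9:56864854-56865103 (plus strand). Capitals mark the matches, on either strand, to the E-box CANNTG, read by basic helix-loop-helix factors, and to the Sox core words ACAAAG and ACAAT.
Pdgfra: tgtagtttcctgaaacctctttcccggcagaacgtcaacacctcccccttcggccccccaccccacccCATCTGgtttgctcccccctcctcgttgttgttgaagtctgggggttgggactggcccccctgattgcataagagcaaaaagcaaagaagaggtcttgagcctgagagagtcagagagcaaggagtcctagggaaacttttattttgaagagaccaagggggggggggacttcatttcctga
Cspg4: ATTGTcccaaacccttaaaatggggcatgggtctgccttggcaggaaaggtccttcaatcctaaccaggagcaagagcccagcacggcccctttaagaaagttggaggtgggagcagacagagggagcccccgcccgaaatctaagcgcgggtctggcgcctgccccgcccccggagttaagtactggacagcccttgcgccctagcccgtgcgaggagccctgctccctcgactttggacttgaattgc
The Pdgfra window held 1 E-box, CATCTG, and 0 Sox words, and the Cspg4 window held 0 E-boxes and 1 Sox word, ATTGT, the reverse complement of ACAAT, at its far end. The matches did not overlap. Such letters are common: of 32851 promoters of the same length, 66.2% held an E-box, 16.5% ACAAAG and 27.7% ACAAT. Of the other promoters, Nkx2-2 had 3 E-boxes and 1 ACAAT word, Sox8 had 1 E-box, CACGTG, and Olig2 had 1 ACAAT word. A match is a description of the letters and does not show that a factor binds there.

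The siChd4 library differed from siSCR in the least abundant of the 8 genes. Sox10 was 7.34-fold higher, Pdgfra 2.13-fold and Myrf 1.58-fold, while Olig1, Olig2, Sox8, Nkx2-2 and Cspg4 had folds between 0.989 and 1.14. On the TPM plus 1 scale, 2 of the 8 genes, Sox10 and Pdgfra, were at least 1.5-fold higher, where 6.75% of all expressed genes (870) were. The number at least 1.5-fold lower was 0, where 4.47% of all expressed genes (576) were. Since the 8 genes were chosen with earlier results of these data known, their counts are not independent of those results. Among genes with a mean TPM within 2-fold of that of Sox10 or Pdgfra, 15.3% and 11.4% were at least 1.5-fold higher. On the deposited FPKM values plus 1, the expressed genes past the limit numbered 721 higher and 295 lower. On the TPM plus 1 scale Sox10 alone passed 2-fold, with Pdgfra just under it at a log2 ratio of 0.95. That limit was passed by 2.26% of expressed genes in the higher and 0.629% in the lower direction. The median log2 ratio of the 8 genes was 0.14, and that of all expressed genes was -0.04. In bulk RNA, a change in the number of cells of a type and a change of RNA per cell cannot be told apart.

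**Figure D1:**
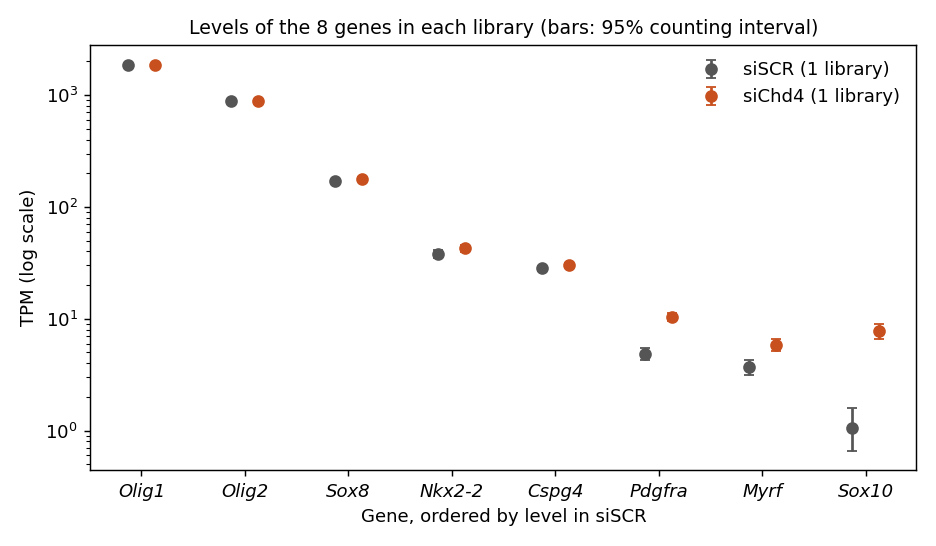
TPM of each gene on a log axis, in order of its level in siSCR; grey points are the siSCR library, orange points the siChd4 library, and bars are 95% counting intervals. The 5 most abundant genes lie nearly level between the libraries, and Pdgfra, Myrf and Sox10, at 1.05 to 4.85 TPM in siSCR, lie higher in siChd4.

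The bHLH genes were the most abundant members. Olig1 (Entrez 50914) was at 1879 TPM in siSCR (1858 to 1900) and 1872 TPM in siChd4 (1852 to 1892), a fold of 0.996 (0.981 to 1.01). Olig2 (Entrez 50913) was at 890 TPM in siSCR (876 to 903) and 880 TPM in siChd4 (867 to 893), a fold of 0.989 (0.968 to 1.01). Both intervals include 1, and the sign of these ratios turned with the scaling: for Olig1 the log2 ratio ran from -0.04 to 0.05 and for Olig2 from -0.03 to 0.04. Olig1 stood 2.11 times above Olig2 in siSCR and 2.13 times in siChd4. Together the pair made up 91.9% of the summed TPM of the 8 genes in siSCR and 90.9% in siChd4, so that the sum, 3014 and 3028 TPM, shows little of what the others did.

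Sox10 (Entrez 20665) was at 1.05 TPM in siSCR (0.658 to 1.59), from 21.99 estimated counts, and at 7.71 TPM in siChd4 (6.60 to 8.96), from 171 estimated counts. The intervals of the libraries lie apart, and the fold of 7.34 has a wide interval, 4.70 to 12.0, because of the few counts in siSCR. The log2 ratio was 2.09. Of the 12882 expressed genes 25, Sox10 included, had a ratio at least as high (0.194%), and of the 2039 genes with a mean TPM within 2-fold of its own 0.589% did.

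Sox8 (Entrez 20681), the related SoxE gene, did not follow Sox10. It was at 170 TPM in siSCR (165 to 175) and 179 TPM in siChd4 (174 to 184), a fold of 1.05 (1.01 to 1.10), and 35.2% of expressed genes had a ratio at least as high. Sox9, the remaining SoxE gene and a factor of glial progenitors, was at 51.0 and 81.1 TPM, 1.59-fold higher in siChd4 (1.495 to 1.69). Sox10 gave 0.473% of the summed TPM of the SoxE genes in siSCR and 2.88% in siChd4. Sox8 stood 162 times above Sox10 in siSCR and 23.2 times in siChd4, so that Sox8 remained by far the more abundant SoxE transcript.

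Nkx2-2 (Entrez 18088) was at 37.8 TPM in siSCR (34.9 to 40.9) and 42.9 TPM in siChd4 (39.9 to 46.1). Its fold was 1.14 (1.02 to 1.26), and 24.2% of expressed genes had a ratio at least as high. Myrf (Entrez 225908) was at 3.70 TPM in siSCR (3.15 to 4.32) and 5.86 TPM in siChd4 (5.18 to 6.60), from 162 and 269.9 estimated counts. The levels lie apart by counting error, with a fold of 1.58 (1.30 to 1.94), but the log2 ratio of 0.55 falls short of the 1.5-fold limit because of the added 1 TPM. With a pseudocount of 0.1 it was 0.65 and passed the limit. A ratio at least as high was found in 7.44% of all expressed genes and in 16.2% of the 2099 genes of similar level, which is a common size of difference at this abundance.

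The receptor genes differed from each other. Pdgfra (Entrez 18595) was at 4.85 TPM in siSCR (4.27 to 5.49) and 10.3 TPM in siChd4 (9.49 to 11.2), from 248 and 563 estimated counts. The fold was 2.13 (1.83 to 2.48) and the log2 ratio 0.95. A ratio at least as high was found in 2.52% of all expressed genes and in 4.86% of the 2718 genes of similar level. Cspg4 (Entrez 121021) was at 28.2 TPM in siSCR (26.9 to 29.5) and 30.3 TPM in siChd4 (29.0 to 31.6), a fold of 1.07 (1.01 to 1.15). Cspg4 was thus 5.81 times as abundant as Pdgfra in siSCR and 2.93 times in siChd4.

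**Figure D2:**
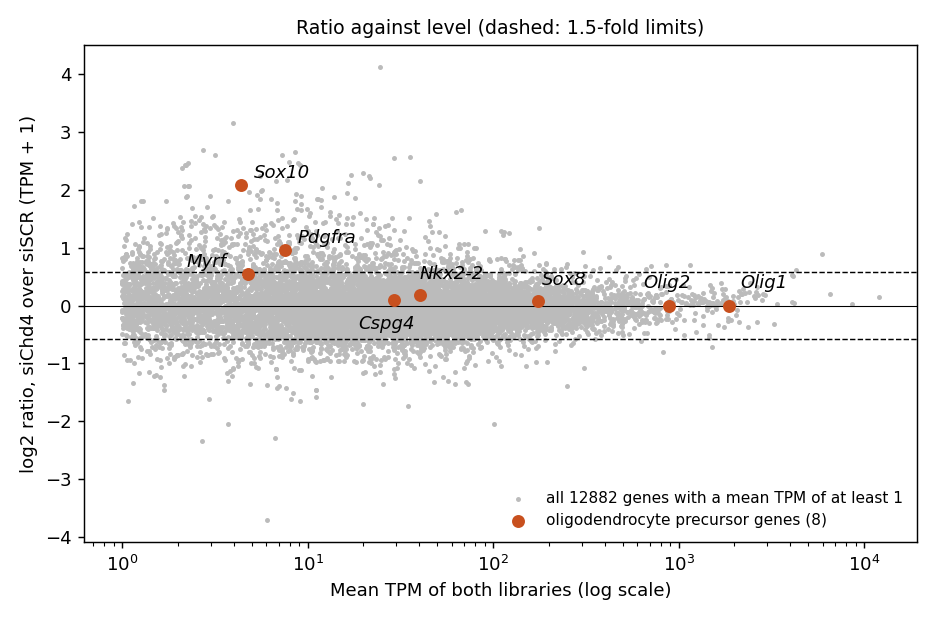
Log2 ratio of TPM plus 1 (siChd4 over siSCR) against mean TPM on a log axis, for 12882 genes in grey and the 8 oligodendrocyte precursor genes in orange; dashed lines are the 1.5-fold limits. Sox10 lies near the upper edge of the cloud at 2.09, Pdgfra at 0.95 is above the limit, Myrf at 0.55 lies just under it, and the rest lie near 0.

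The order of the levels was Olig1, Olig2, Sox8, Nkx2-2 and Cspg4 in both libraries, and neighbours in this order had separate counting intervals. Below them siSCR had Pdgfra, Myrf and Sox10, and siChd4 had Pdgfra, Sox10 and Myrf. The intervals of Pdgfra and Myrf overlapped in siSCR, where Pdgfra was 1.31 times above Myrf. Those of Sox10 and Myrf overlapped in siChd4, but only between 6.598 and 6.602 TPM. An overlap of intervals does not show that levels are equal, and no interval was computed for the ratio between genes. Sox10 was the lowest member in siSCR, clear of Myrf by 3.52 times, and was 1.32 times above Myrf in siChd4. Estimated counts over FPKM, a quotient that holds both transcript length and depth, differed by at most 1.03 times between the libraries for these genes. The count ratios (7.78 for Sox10, 2.27 for Pdgfra, 1.66 for Myrf) were close to the TPM folds.

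Other genes of the lineage were taken from lists of known regulators, surface and secreted proteins, signalling partners and myelin genes. Each count below is to be read beside the shares over all expressed genes, 6.75% higher and 4.47% lower by the 1.5-fold limit. Of 18 regulators of the lineage that reached the minimum, 2 were at least 1.5-fold higher and 0 lower, with a median of 0.06. The 2 were Sox9 and Nkx6-2, a homeodomain gene of the lineage at 1.71 and 3.73 TPM from 17 and 39 counts, a fold of 2.18 (1.21 to 4.11).

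Of 19 surface and secreted genes of precursors, 9 were higher by the same limit and 1 was lower, with a median of 0.54. Tnr, which encodes the matrix glycoprotein tenascin-R, was at 14.2 TPM in siSCR and 42.5 TPM in siChd4 (2.98-fold, 2.81 to 3.17). Gpr17, a receptor gene of precursors committed to differentiate, was at 0.27 and 2.27 TPM from 11 and 97.3 counts (8.41-fold, 4.50 to 17.4). The others that were higher were Bcan, Lhfpl3, Pcdh15, C1ql1, Matn4, Cacng4 and Bcas1, with log2 ratios between 0.67 and 1.33. Gpr17 and Matn4 were under 1 TPM in siSCR and reached the minimum through siChd4, so their inclusion is not independent of their direction. The gene that was lower was Xylt1, of the enzyme that starts glycosaminoglycan chains on proteoglycans such as NG2, at 149 and 71.6 TPM (0.482-fold, 0.455 to 0.510).

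Of 12 partners of PDGF receptors and NG2 that reached the minimum, 0 were higher and 1 was lower, and the median was -0.15. The 8 PDGF ligands and signalling genes among them had a median of -0.04, equal to that of all expressed genes, and the 4 NG2 partners lay between -0.44 and -0.26, a division made after the values were seen. Pdgfa, the main ligand of the receptor, was at 18.3 and 18.9 TPM (1.04-fold, 0.899 to 1.20). Pik3r1, a regulatory subunit of the kinase PI3K, was at 149 TPM in siSCR and 92.4 TPM in siChd4 (0.620-fold, 0.599 to 0.642). Pdgfrb, the paralog of Pdgfra, was at 0.12 and 0.16 TPM from 5 and 4 counts, close to the floor of 3 counts.

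Of 20 myelin and maturing oligodendrocyte genes, 10 did not reach the minimum. The most abundant was Cnp, of a phosphodiesterase of myelin, at 93.5 TPM in siSCR and 186 TPM in siChd4 (1.98-fold, 1.87 to 2.11). Of the 10 that reached it, 7 were higher and 0 lower, with a median of 0.92. Cldn11, a tight junction gene of myelin, was at 1.39 and 8.30 TPM (5.97-fold, 3.71 to 10.1). Gal3st1, of the enzyme that makes the myelin lipid sulfatide, was at 0.26 and 4.28 TPM from 3.94 and 63.99 counts (16.5-fold, 6.12 to 62.3), and passed the minimum through siChd4 alone. The genes of mature myelin Mag, Mog and Mobp were at or below 0.47 TPM in both libraries. Among paralogs of the 8 genes, 3 reached the minimum and Sox9 was the 1 past the limit. These lists were written with earlier results of the same libraries known, so their direction is not independent of those results.

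**Figure D3:**
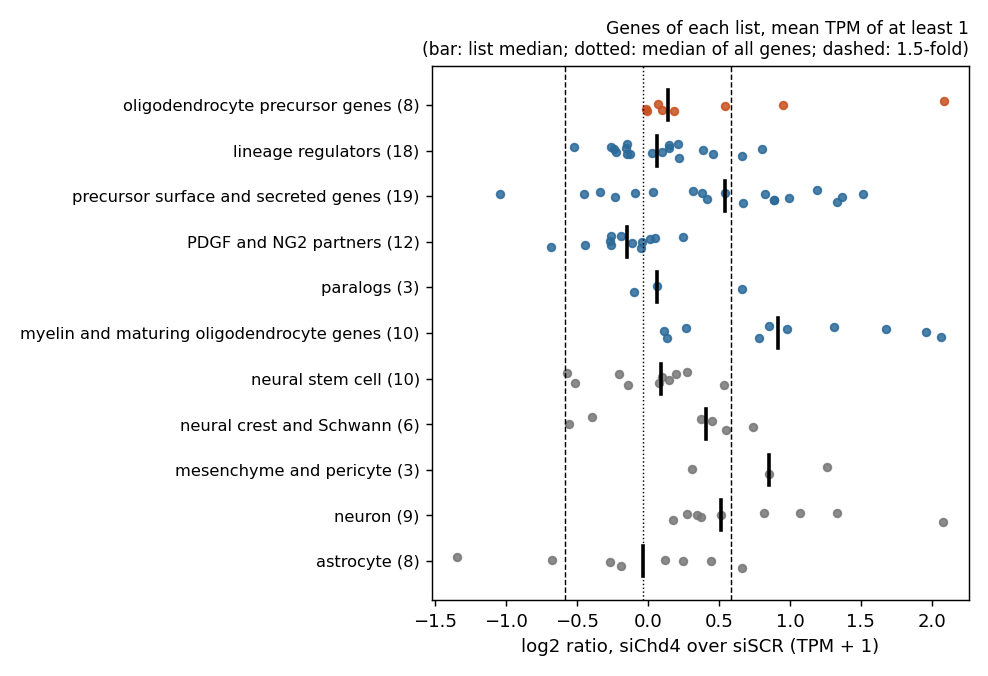
Log2 ratio of TPM plus 1 for each expressed gene, by list, with the number of genes in brackets; orange is the 8 genes, blue the other lineage lists and grey markers of cell types, bars are list medians, the dotted line is the median of all genes and dashed lines are the 1.5-fold limits. The surface and myelin lists lie to the right, with medians of 0.54 and 0.92. So do the neuron markers (0.52), the 3 mesenchyme and pericyte markers (0.85) and the neural crest and Schwann markers (0.41). The partners of PDGF receptors and NG2 have a median of -0.15.

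Sox10 is also a gene of neural crest and Schwann cells, and Pdgfra and Cspg4 are expressed by fibroblasts and pericytes. Of 12 neural crest and Schwann markers, 10 were analysed and 6 reached the minimum. Their summed level was 112 TPM in siSCR and 149 TPM in siChd4, and 1, Pmp22, was past the limit (61.9 and 104 TPM). Without Pmp22, a division made after the values were seen, the sum was 50.03 TPM in siSCR and 44.8 TPM in siChd4. Ets1 (30.7 and 20.6 TPM) and Mitf (4.7 and 3.33 TPM) had the lower level in siChd4. Ngfr (4.01 and 6.32 TPM), Egr2 (4.01 and 5.83 TPM) and Cdh19 (5.9 and 7.93 TPM) had the higher level there. The median log2 ratio without Pmp22 was 0.37. Erbb3, a neuregulin receptor gene of Schwann cell precursors, was at 0.09 and 0.20 TPM. The 12 mesenchyme and pericyte markers summed to 11.6 and 20.1 TPM, and 3 reached the minimum. Of these, Tagln (2.14 and 6.53 TPM) and Col1a1 (0.64 and 1.96 TPM) were higher, and Col1a1 reached the minimum through siChd4 alone. The other 9 were at or below 1.13 TPM in both libraries, 6 of them with the higher level in siChd4 and 3 in siSCR. Lum, Dcn and Kcnj8 were listed at 0 in siSCR and had 1 or 2 counts in siChd4, and Anpep was listed at 0 in siChd4 and had 2 counts in siSCR. The 10 neuron markers summed to 534 and 707 TPM, with 4 of 9 past the limit in the higher direction and 0 in the lower. The 4 were Tubb3, Dcx, Syp and Snap25, all 9 had a ratio above 0, and the median was 0.52. By the same limit 6.75% of all expressed genes were higher and 4.47% lower. Of 8 astrocyte markers 1 was higher, Sox9, which is also counted among the regulators and the paralogs above. The 2 that were lower were Gja1 (105 and 40.8 TPM) and Slc1a2 (94.1 and 58.4 TPM). The part of these other cell types in the levels of Sox10, Pdgfra and Myrf was not tested.

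The genes whose pair of levels was most like that of Sox10 were Cldn11, Tor4a and Ly6h. Likeness was the distance between log2 values of TPM plus 1 over the 2 libraries, and these distances were 0.24, 0.25 and 0.35. Tor4a was at 1.09 TPM in siSCR and 6.34 TPM in siChd4, and Ly6h at 1.29 and 9.77 TPM. With only 2 libraries, such likeness says no more than that the genes had similar levels in each.

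**Figure D4:**
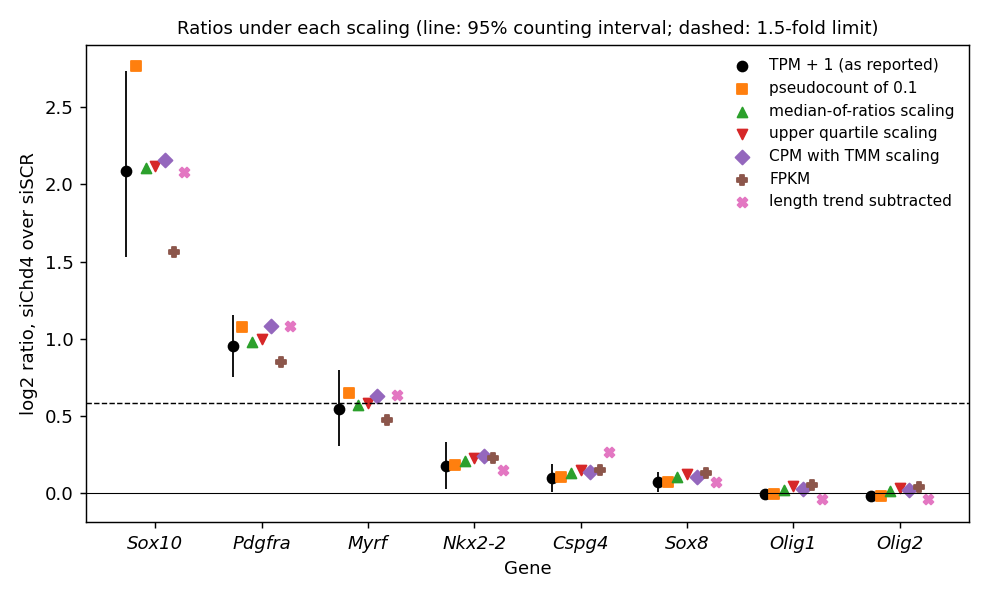
Log2 ratio (siChd4 over siSCR) of each of the 8 genes under 7 ways of scaling the values; the black point is the reported value, the line its 95% counting interval and the dashed line the 1.5-fold limit. Sox10 (1.56 to 2.76 under the alternatives) and Pdgfra (0.85 to 1.08) stay above the limit, Myrf (0.47 to 0.65) lies on either side of it, and Olig1 and Olig2 lie on either side of 0.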

How the data were processed

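RNA sequencing of mouse neural stem cells was analysed from 1 table of 17359 genes. Per the file headers, the authors deposited FPKM, TPM and read count values for each library. These read counts are estimated counts as deposited: 16.0% (siSCR) and 17.8% (siChd4) of them were whole. Per the submitters' processing notes, mm39 was the genome build. The aligner, counter and strand setting were not given in the sources used here.

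Groups were taken from the titles. The log2 ratio was computed from TPM with a pseudocount of 1 for the 12882 genes whose mean TPM reached 1. With 1 library per group no test between conditions was run. Fold intervals are exact Clopper-Pearson and level intervals exact Poisson, at 95%, from rounded counts. A floor of 3 counts was 0.151 CPM in siSCR and 0.149 CPM in siChd4. The code was tested on simulated data. Named genes were the 8 genes, Chd4, up to 2 genes per direction and list past 1.5-fold (or the 2 most abundant), the nearest expressed neighbours and the 3 genes most like Sox10; further lineage genes and cell type markers named were chosen after their values were seen. The members and lists were chosen with earlier results of these data known. Alternatives were upper quartile and median-of-ratios scaling, a pseudocount of 0.1, CPM with TMM (edgeR 4.0.16), FPKM, subtraction of a lowess trend with transcript length (span 0.3), other minimums and a 2-fold limit. Those for Chd4 were added after the data were seen. Analysis used Python 3.11.15, scipy 1.17.1 and statsmodels 0.14.6.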

Additional observations from a re-analysis of the deposited data

How the results depend on the processing

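Of 48 values of the 8 genes under other scalings, 38 stayed within the counting interval, 10 moved beyond it, and none past 1.5-fold turned its sign. Most of the moves were those of Olig1 and Olig2, whose counting intervals are narrow. Olig1 stayed within its interval in 1 of 6 alternatives and Olig2 in 3 of 6. Sox10 moved with a pseudocount of 0.1, to a log2 ratio of 2.76, since a smaller pseudocount widens the ratio of a low gene, and Cspg4 moved to 0.27 with the length trend subtracted. The genes at least 1.5-fold higher numbered 3, with Myrf the added one, with a pseudocount of 0.1 (Myrf at 0.65), upper quartile scaling (0.59), CPM with TMM scaling (0.63) and the length trend subtracted (0.64), and the number lower was 0 throughout. With a mean TPM of at least 5 there was 1, Pdgfra, because Sox10 and Myrf then drop out, and 533 of all genes were higher. With a 2-fold limit there was 1, Sox10, and 291 and 81 of all genes were higher and lower. Pdgfra reached a log2 ratio of 1.08 with a pseudocount of 0.1, with CPM and TMM scaling and with the length trend subtracted, and so passed 2-fold there. On FPKM, also with 1 added, 295 genes were lower. FPKM values were smaller than TPM (748 against 1879 for Olig1 in siSCR), and the part of this in the count was not tested. Chd4 stayed below 0, from -0.29 to -0.17. Depth limits Sox10 in siSCR, at 21.99 counts. No paired analysis was possible because there was 1 library per group.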

Other observations

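The genes next to the 8 on the chromosome, from the RefSeq gene order of GRCm38.p6 (a build other than that of the table, used for order only), were also read. Of the 14 nearest genes that reached a mean of 1 TPM, 12 differed by less than 1.5-fold, 1 was higher and 1 lower. Of all expressed genes 6.75% were higher and 4.47% lower by the same limit. Beside Sox10 stood Polr2f, an RNA polymerase subunit gene, at 202 TPM in siSCR and 248 TPM in siChd4 (1.23-fold, 1.12 to 1.35), and Pick1 at 21.6 and 28.3 TPM (1.31-fold, 1.13 to 1.51). Beside Pdgfra stood Gsx2, a homeobox gene of ventral forebrain progenitors, at 6.26 and 7.58 TPM (1.21-fold, 0.895 to 1.64), and the receptor gene Kit at 7.24 and 6.68 TPM (0.923-fold, 0.781 to 1.09). Beside Myrf, Tmem258 was at 119 and 124 TPM and Dagla at 15.4 and 12.4 TPM. The 2 neighbours past the limit flank the Olig genes, whose own levels were nearly equal. Ifnar2, an interferon receptor subunit gene beside Olig1, was at 27.7 and 42.4 TPM (1.53-fold, 1.34 to 1.74). 4932438H23Rik, beside Olig2, was at 3.96 and 2.07 TPM (0.523-fold, 0.287 to 0.937).

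In GENCODE M21 (GRCm38), 4 of the 8 genes share exon bases with another gene, and without knowledge of strand use the reads of such pairs cannot be told apart. Nkx2-2 shares 9.67% of its exon bases with Nkx2-2os, on the opposite strand, and Sox8 10.6% and Olig1 7.26% with an opposite-strand gene each. Pdgfra shares 4.55% and 1.66% with 2 opposite-strand genes and 0.299% with a microRNA gene on its own strand. Sox10, Olig2, Myrf and Cspg4 share none. The values of these overlapping genes were not analysed here.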
